A study of Homo sapiens with 12 samples.

Results

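The transcripts of the E2F and retinoblastoma family were examined in TIGK cells, a human gingival keratinocyte line immortalized with telomerase, by poly(A) RNA sequencing. The members were the 10 genes E2F1, E2F2, E2F3, E2F4, E2F5, E2F7, E2F8, RB1, RBL1, and RBL2, taken by gene name from the 58735 genes of the count table. All groups were kept at 48 mM glucose in a medium whose base contained no L-arginine (Arg). The Arg groups received 500 µM Arg for 24 or 48 h, while the control groups received none over the same periods. There were 12 libraries, with replicates A, B, and C in each of 4 groups (n = 3). TIGK is a single line, and the labels do not say whether the replicates were separate cultures, so the p-values measure the spread between these libraries, which may be technical.

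E2F proteins are transcription factors that, mostly paired with a DP partner, bind promoters of genes for DNA replication and cell division. The pocket proteins RB1, RBL1 (p107), and RBL2 (p130) bind E2Fs and repress these promoters until cyclin-dependent kinases phosphorylate them at the end of G1. E2F1, E2F2, and E2F3 are the activators, E2F4 and E2F5 act mainly as repressors with pocket proteins, and E2F7 and E2F8 are atypical members that repress without a DP partner. In stratified epithelia such as the gingiva, this switch is known for separating dividing basal keratinocytes from those that leave the cell cycle.

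The upstream sequences of 4 members are given because E2F genes can themselves be bound by E2Fs and because E2F2 was the member that changed with Arg. These were E2F2 and the next members by p at 24 h with a window at the 5′ end of the gene. Each is the 250 bases before the RefSeq transcription start (GRCh38.p14), read 5′ to 3′ on the strand of the gene, and capitals mark a match to an E2F motif. The windows are chr1:23531234-23531483 (minus strand) for E2F2, chr20:33686386-33686635 (minus strand) for E2F1, chr20:37095998-37096247 (minus strand) for RBL1, and chr16:53434221-53434470 (plus strand) for RBL2. The RBL2 window begins inside the gene as the count table places it (from 53433977). For E2F1, which is placed there up to 33686404, the last bases of the printed sequence, with most of its marked motif, also lie inside the gene.
E2F2: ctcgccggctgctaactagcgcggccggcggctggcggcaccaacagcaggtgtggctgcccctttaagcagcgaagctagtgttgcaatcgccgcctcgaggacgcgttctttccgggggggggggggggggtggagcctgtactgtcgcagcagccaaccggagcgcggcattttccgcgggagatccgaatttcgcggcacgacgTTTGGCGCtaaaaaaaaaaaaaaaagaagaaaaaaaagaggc
E2F1: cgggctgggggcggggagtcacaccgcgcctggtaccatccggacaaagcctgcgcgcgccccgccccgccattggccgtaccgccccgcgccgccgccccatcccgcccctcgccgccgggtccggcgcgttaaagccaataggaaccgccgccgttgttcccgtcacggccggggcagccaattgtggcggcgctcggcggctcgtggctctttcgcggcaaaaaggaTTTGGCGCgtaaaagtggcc
RBL1: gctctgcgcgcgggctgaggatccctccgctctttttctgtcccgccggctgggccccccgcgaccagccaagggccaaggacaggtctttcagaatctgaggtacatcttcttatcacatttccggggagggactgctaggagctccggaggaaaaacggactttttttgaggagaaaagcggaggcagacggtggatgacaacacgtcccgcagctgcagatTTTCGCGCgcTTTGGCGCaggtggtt
RBL2: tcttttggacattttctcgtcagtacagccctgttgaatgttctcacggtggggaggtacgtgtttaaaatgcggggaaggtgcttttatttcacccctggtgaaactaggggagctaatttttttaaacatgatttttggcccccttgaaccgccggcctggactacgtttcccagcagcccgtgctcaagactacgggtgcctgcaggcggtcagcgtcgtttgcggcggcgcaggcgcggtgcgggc

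The motifs searched were TTTCGCGC, TTTGGCGC, and TTCCCGCC for E2F, TTTGAA and TTCGAA for the cell cycle homology region (CHR), and CCAAT, on both strands of each RefSeq window of 250 bases before to 50 bases after the start. Of the members, 8 had a window, and E2F5 and E2F8 were not matched. E2F3 and RBL2 had 2 windows each, of which the first listed was searched and, for RBL2, printed. The single window of RB1 lies within the gene, away from its 5′ end. E2F2 and E2F1 held TTTGGCGC, at −42 to −35 and −20 to −13 from the start, respectively. RBL1 held TTTCGCGC at −26 to −19 and TTTGGCGC at −16 to −9, separated by a pair of bases. E2F3 held TTCCCGCC on the opposite strand at −54 to −47. Hence 4 of the 8 matched members held an E2F motif, against 4.24% of all 35116 windows. The 4 windows had a GC content from 58.3% (E2F3) to 73.3% (E2F1), and the windows compared were not matched for GC content. TTTGGCGC alone was in 0.652% of all windows, TTTCGCGC in 0.515%, and TTCCCGCC in 3.16%. A CHR motif (TTTGAA, in 15.2% of all windows) was in the windows of E2F3 and RBL2, and none held TTCGAA (1.45%). E2F1, E2F3, and E2F7 held CCAAT (34.6%). These matches describe letters in the windows and say nothing about binding.

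The libraries held between 16542243 and 19040964 counts, and all 10 members passed the filter on low counts in every comparison. The sums over the 12 libraries ran from 1575 counts for E2F5 to 35852 for E2F4. All 8 keratinocyte markers were detected (KRT5 between 24100 and 31670 CPM, counts scaled to a common library size), and the 3 immune markers summed to at most 0.449 CPM. The 3 melanocyte and 3 endothelial markers summed to at most 3.05 and 2.13 CPM. Of the fibroblast markers, COL1A1 (10.77–26.99 CPM), DCN (15.25–76.07 CPM), LUM, and PDGFRB were detected in every library. LUM and PDGFRB had no more than 2.34 and 1.75 CPM. COL1A2 lay between 0 and 0.0575 CPM. Mitochondrially encoded genes took between 0.624% and 1.55% of the counts. The highest share was that of control replicate B at 48 h, which stood apart from replicates A and C in its group. Calls that changed without this library are given both ways.

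Levels were first compared between members per exonic length, as FPKM (TMM-scaled CPM per kilobase of the deposited exonic length). In the 24 h control, E2F4 was the most abundant member at 50.2 ± 3.60 FPKM (SD, n = 3), and RB1 followed at 18.8 ± 1.79. E2F1 (10.96 ± 0.704) and RBL1 (10.7 ± 0.885) came next, and their libraries overlapped. E2F3 had 8.74 ± 0.296 FPKM. E2F7 (5.78 ± 0.532) and RBL2 (5.74 ± 0.504) again overlapped. E2F8 had 4.00 ± 0.719, E2F2 had 2.36 ± 0.0383, and E2F5 had 1.52 ± 0.242 FPKM. No other neighbours in this order overlapped. E2F4, RB1, and E2F5 held ranks 1, 2, and 10 in all 4 groups. E2F2 held rank 9 in all 4, although with 24 h of Arg its level (4.04 ± 0.0849 FPKM) came closer to that of E2F8 (4.90 ± 0.352). In the 48 h control, E2F8 and E2F2 overlapped. RBL2 moved from rank 7 at 24 h to rank 5 at 48 h with and without Arg, past E2F3 and E2F7, although with Arg its libraries overlapped those of E2F3.

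**Figure D1:**
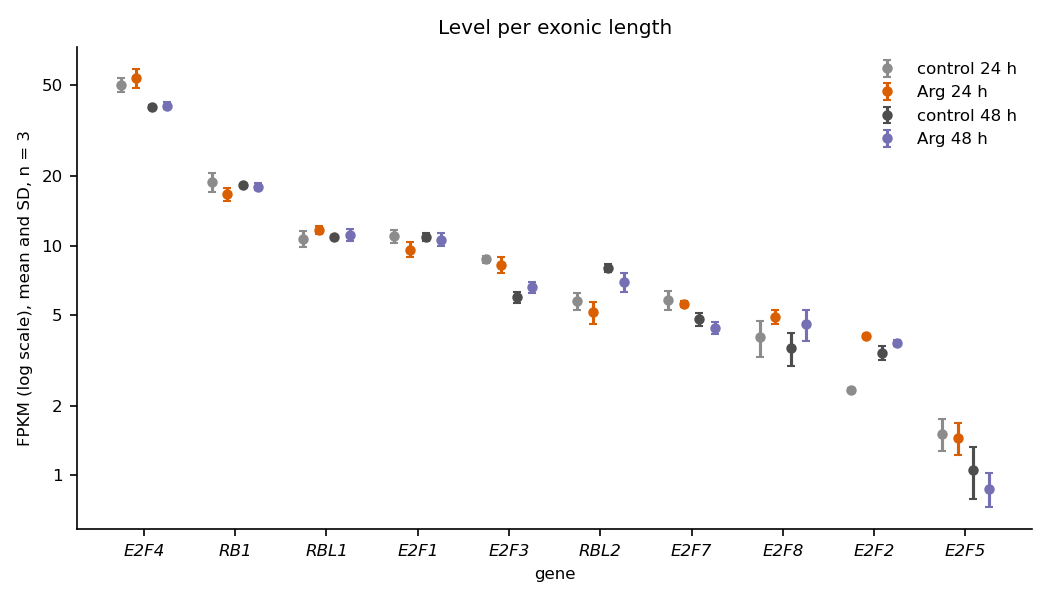
Mean level of each member in FPKM (log axis) by group, with bars of 1 SD over 3 libraries. E2F4 was highest in every group and E2F5 lowest, and E2F2 rose from 2.36 FPKM in the 24 h control to 4.04 with Arg.

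Summed by role, the repressors E2F4 and E2F5 had 51.7 ± 3.84 FPKM in the 24 h control, the pocket proteins 35.3 ± 2.73, the activators 22.1 ± 0.676, and the atypical members 9.79 ± 0.991. E2F4 made up between 56.9% and 61.2% of the summed FPKM of the 7 E2Fs, as the mean of each group. The activators summed to 21.9 ± 1.21 FPKM with 24 h of Arg, so their sum overlapped that of the control (20.5–22.8 against 21.6–22.8 FPKM). Within that sum, E2F2 made up 10.7% ± 0.480 in the 24 h control and 18.5% ± 1.39 with Arg, and E2F1 made up 49.7% ± 1.94 and 43.9% ± 1.22. At 48 h, the share of E2F2 was 16.9% ± 0.453 in the control and 18.0% ± 0.468 with Arg. These shares are descriptions without a test.

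The first comparison asked whether Arg changed the family after 24 h. E2F2, an activator, was the only member called (adjusted p under 0.05, with all tested genes in the adjustment). It had 12.7, 12.9, and 13.1 CPM in the control libraries and 21.5, 22.2, and 22.4 CPM in the Arg libraries, from 226 to 234 and from 381 to 417 counts. All Arg libraries were above all control libraries, and the gap between the groups was wider than the range within either. In log2 terms, E2F2 was higher by 0.77 (standard error 0.119, 95% interval 0.52 to 1.02, adjusted p = 0.00078, edgeR's quasi-likelihood test), or 1.71-fold (interval 1.44 to 2.03). It ranked 88 by p among the 14279 genes tested. Of these genes, 6.63% were called in either direction, 2.79% as higher and 3.84% as lower, so 1 of 10 members was near the background. E2F2 (chromosome 1, 23506430 to 23531220, minus strand) overlaps no other gene of the table. Mitochondrially encoded genes took between 1.20% and 1.30% of the counts in the 24 h control libraries and between 0.624% and 0.802% in the Arg libraries, and the part of this difference in the result was not tested. In bulk libraries, more cells that express E2F2 and more E2F2 RNA per cell cannot be told apart.

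**Figure D2:**
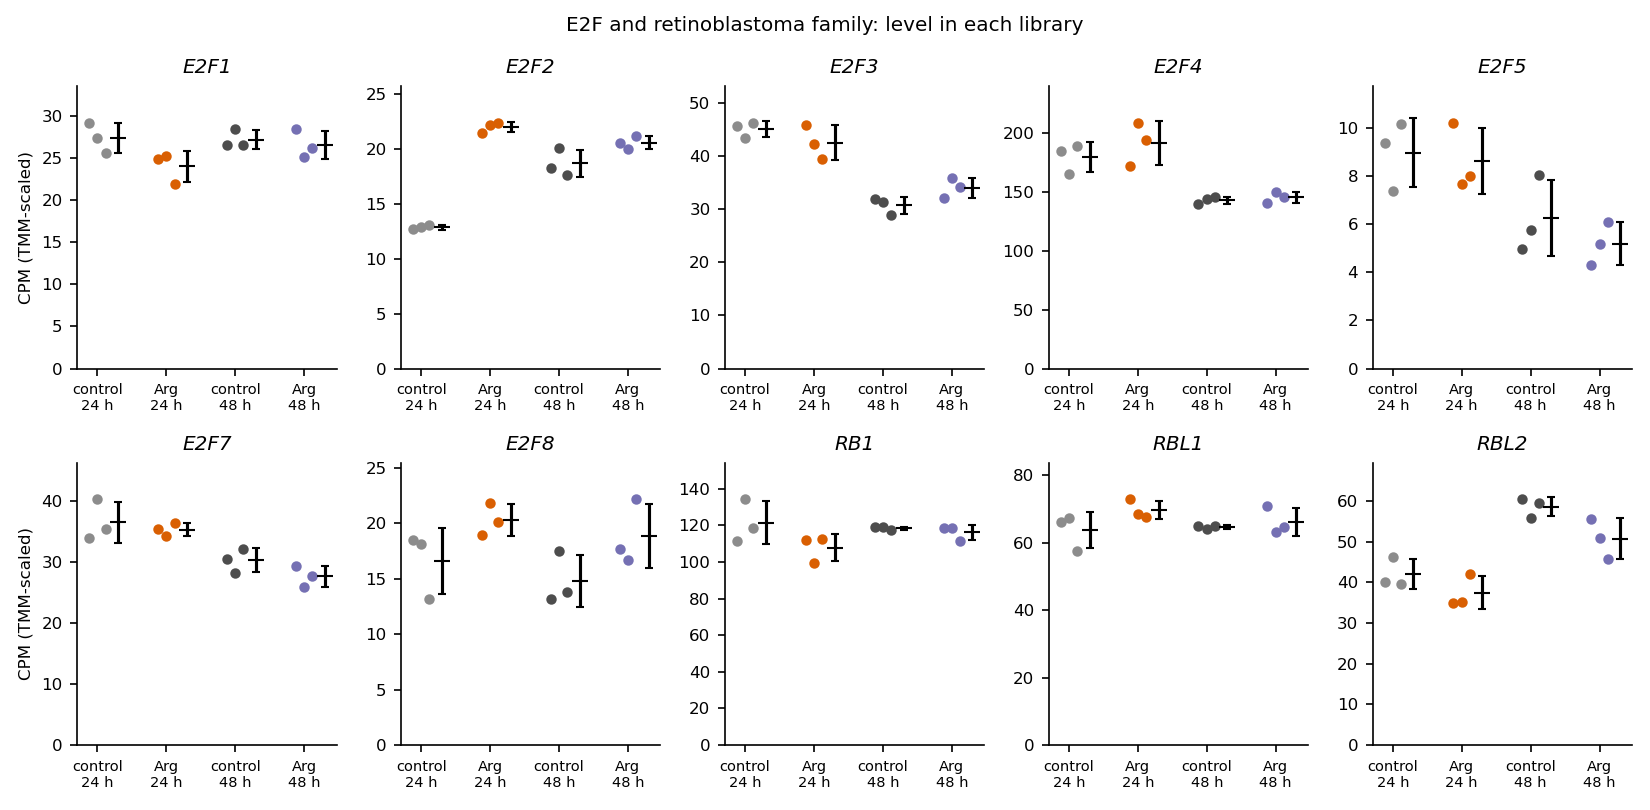
Level of each member in each library, in TMM-scaled CPM on linear axes that start at 0, with points for libraries and crosses with bars for the mean ± 1 SD (n = 3). The 3 Arg libraries of E2F2 at 24 h sit between 21.5 and 22.4 CPM, all above the control libraries at 12.7–13.1 CPM.

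The other activators did not pass the test at 24 h. E2F1, the best known activator of S phase entry, had 29.2, 27.4, and 25.7 CPM in the control and 24.9, 25.3, and 22.0 CPM with Arg. Every Arg library lay below every control library, by a small margin. Its log2 fold change was −0.19 (interval −0.42 to 0.04, adjusted p = 0.311), opposite in sign to that of E2F2. E2F3, which acts as activator or repressor depending on its isoform, had 45.6, 43.4, and 46.3 CPM in the control and 46.0, 42.4, and 39.4 CPM with Arg, and the groups overlapped. This gave a log2 fold change of −0.08 (interval −0.28 to 0.11, adjusted p = 0.639). The ratio of E2F2 to E2F1 in FPKM was 0.216 ± 0.0174 in the control and 0.422 ± 0.0396 with Arg.

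Among the repressors, E2F4, a mostly pocket-bound factor in quiescent cells, had 185, 165, and 189 CPM in the control and 172, 209, and 195 CPM with Arg, so the groups overlapped. The log2 fold change of E2F4 was 0.09 (interval −0.09 to 0.28, adjusted p = 0.567). E2F5 had 7.39–10.2 CPM in the control and 7.68–10.2 CPM with Arg, with a log2 fold change of −0.06 (interval −0.44 to 0.32, adjusted p = 0.888). Its interval was the widest of the 10, at 131 to 182 counts per library. E2F5 also overlaps C8orf59 on the opposite strand (3167 counts), and the strand setting of the counting is not given in the sources used here, so its level is uncertain.

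The atypical members, which repress E2F target genes in late S phase and G2, did not pass either. E2F8 had 18.5, 18.1, and 13.1 CPM in the control and 18.9, 21.8, and 20.1 CPM with Arg. The Arg libraries lay above the control libraries, but the nearest pair lay close together (18.5 against 18.9). Its log2 fold change was 0.29 (interval −0.0034 to 0.58, unadjusted p = 0.0524, adjusted p = 0.224). E2F7 had 33.8–40.2 CPM in the control and 34.2–36.3 CPM with Arg, with a log2 fold change of −0.05 (interval −0.26 to 0.16, adjusted p = 0.814).

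None of the pocket proteins passed at 24 h. RB1, the retinoblastoma tumour suppressor, had 112, 134, and 119 CPM in the control and 112, 99.3, and 113 CPM with Arg, and the groups overlapped (log2 fold change −0.17, interval −0.36 to 0.02, adjusted p = 0.262). RBL1, which is itself expressed mainly in cycling cells, had 66.1, 67.3, and 57.7 CPM in the control and 72.9, 68.5, and 67.8 CPM with Arg, which did not overlap (log2 fold change 0.13, interval −0.06 to 0.32, adjusted p = 0.421). RBL2, which is known for its place in quiescent cells, had 40.1, 46.3, and 39.7 CPM in the control and 34.98, 35.26, and 42.1 CPM with Arg, which overlapped (log2 fold change −0.17, interval −0.39 to 0.05, adjusted p = 0.364). In all, 4 of the 10 members (E2F1, E2F2, E2F8, and RBL1) had groups that did not overlap, against 26.2% of the genes tested. At an unadjusted p under 0.05, 1 member passed, against 22.8% of the genes tested.

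After 48 h, the comparison of Arg with control called no member by edgeR (DESeq2 likewise called 0), and 2 had an unadjusted p under 0.05. Of the 14562 genes tested, 0.117% were called, all lower, and 13.4% had an unadjusted p under 0.05. E2F2 had 18.3, 20.1, and 17.7 CPM in the control and 20.5, 20.04, and 21.2 CPM with Arg. The lowest Arg library (20.04) lay just under the highest control library, replicate B (20.11). Its log2 fold change was 0.14 (interval −0.10 to 0.37, adjusted p = 0.613), so the upper bound of this interval lay under the lower bound at 24 h (0.52). Without control replicate B, the groups did not overlap, and E2F2 still did not pass (log2 fold change 0.19, adjusted p = 0.253).

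**Figure D3:**
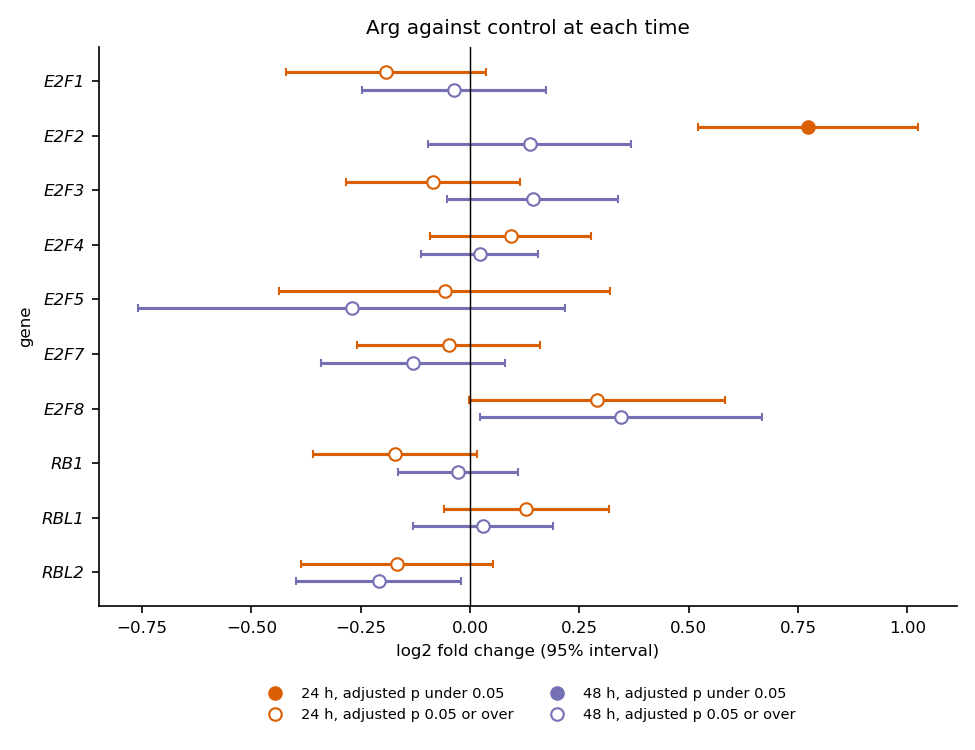
Log2 fold change of each member with Arg against control at 24 h and at 48 h, with 95% intervals, where filled points mark an adjusted p under 0.05. E2F2 at 24 h (0.77, interval 0.52 to 1.02) is the only filled point.

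The members with an unadjusted p under 0.05 at 48 h were E2F8 and RBL2. E2F8 had 13.2, 17.5, and 13.8 CPM in the control and 17.7, 16.7, and 22.2 CPM with Arg, and the 17.5 CPM of control replicate B lay among the Arg libraries. Its log2 fold change was 0.34 (interval 0.02 to 0.67, unadjusted p = 0.0383, adjusted p = 0.342). Without control replicate B, it was 0.48 with an adjusted p of 0.0142, so the call depends on that library. Without this library, 1152 of all genes were called higher and 1213 lower, against 17 called with it. RBL2 had 60.4, 55.9, and 59.5 CPM in the control and 55.6, 51.0, and 45.7 CPM with Arg. The groups did not overlap, although the nearest pair (55.9 and 55.6 CPM) nearly met. Its log2 fold change was −0.21 (interval −0.40 to −0.02, unadjusted p = 0.0328, adjusted p = 0.327), and the adjusted p with 1 library left out ran from 0.0514 (without control replicate B) to 0.716.

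For the other members at 48 h, the log2 fold changes ran from −0.27 (E2F5) to 0.14 (E2F3), with adjusted p-values between 0.523 and 0.907. E2F3 had 29.0–32.0 CPM in the control and 32.1–35.9 CPM with Arg, which did not overlap (log2 fold change 0.14, interval −0.05 to 0.34, adjusted p = 0.523). RB1 had 117–119 CPM in the control and 112–119 CPM with Arg, and its interval of −0.17 to 0.11 was among the narrowest. RBL1 had 64.1–65.1 and 63.1–70.8 CPM, and E2F4 had 140–146 and 141–151 CPM. E2F7 had 28.2–32.1 and 25.9–29.4 CPM (log2 fold change −0.13, interval −0.34 to 0.08, adjusted p = 0.588), and E2F1 had 26.6–28.6 and 25.2–28.4 CPM (log2 fold change −0.04, interval −0.25 to 0.17, adjusted p = 0.901). In all, 2 of the 10 members (E2F3 and RBL2) did not overlap, against 17.1% of the genes tested.

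Whether the effect of Arg differed between the times was tested by the interaction of Arg and time over the 12 libraries. For E2F2, the Arg effect on the log2 scale was smaller at 48 h by a difference of −0.64 (standard error 0.148, interval −0.94 to −0.33). It ranked 16 by p among the 15148 genes of edgeR's quasi-likelihood test (unadjusted p = 0.00035) but did not pass the adjustment over them (adjusted p = 0.287). With 1 library left out, the difference lay between −0.67 and −0.58 with adjusted p-values from 0.147 to 0.657, in the same direction in 12 of 12 fits. No other member had an unadjusted p under 0.05, and their differences ran from −0.21 (E2F5) to 0.23 (E2F3), with adjusted p-values of at least 0.777. Between these lay RBL1 (−0.10), E2F7 (−0.08), E2F4 (−0.07), RBL2 (−0.04), E2F8 (0.06), RB1 (0.15), and E2F1 (0.16). Over all genes, 6.87% had an unadjusted p under 0.05 and 0.0132% were called.

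More members were called between the times than between Arg and control. In the control, E2F2 and RBL2 rose and E2F3 and E2F4 fell from 24 to 48 h, 4 of the 10 members against 19.9% of the genes tested. With Arg, RBL2 rose and E2F3, E2F4, E2F5, and E2F7 fell, 5 of the 10 against 28.3%. The groups did not overlap for 5 members in the control and 6 with Arg, against 39.0% and 42.2% of the genes tested. The comparison of Arg with control at 24 h and that of the times in the control share the 24 h control libraries.

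**Figure D4:**
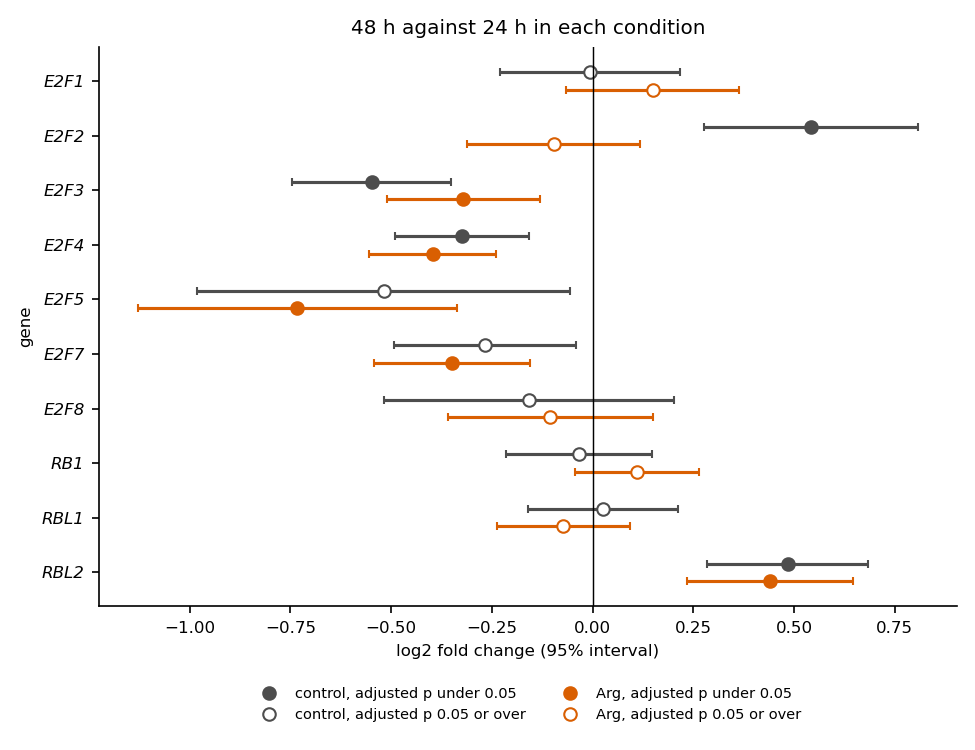
Log2 fold change of each member at 48 h against 24 h, without Arg (control) and with Arg, with 95% intervals, where filled points mark an adjusted p under 0.05. RBL2 lies above 0 and E2F3 and E2F4 below 0 in both conditions, and E2F2 is filled in the control (0.54) but not with Arg (−0.10).

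E2F2 rose in the control from 12.7–13.1 CPM at 24 h to 17.7–20.1 CPM at 48 h, with no overlap. This was a log2 fold change of 0.54 with a standard error of 0.122 (interval 0.28 to 0.81, adjusted p = 0.0111). Without control replicate A at 24 h, it was 0.53 with an adjusted p of 0.0579. With Arg, E2F2 had 21.5–22.4 CPM at 24 h and 20.04–21.2 CPM at 48 h, a log2 fold change of −0.10 (interval −0.31 to 0.12, adjusted p = 0.527). The 24 h control was thus the group that stood apart, with 13.1 CPM in its highest library against 17.7 CPM in the lowest library of the other groups. The difference between these changes over time is the interaction given above. E2F1 did not pass in either condition, with log2 fold changes of −0.01 in the control (interval −0.23 to 0.22, adjusted p = 0.971) and 0.15 with Arg (interval −0.07 to 0.36, adjusted p = 0.303).

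E2F3 fell in the control from 43.4–46.3 to 29.0–32.0 CPM (log2 fold change −0.55, standard error 0.0907, adjusted p = 0.00326), and with Arg from 39.4–46.0 to 32.1–35.9 CPM (log2 fold change −0.32, standard error 0.0909, adjusted p = 0.0119). With Arg, the adjusted p was 0.0654 without Arg replicate A at 48 h. E2F4 fell in the control from 165–189 to 140–146 CPM (log2 fold change −0.32, standard error 0.0763, adjusted p = 0.0133) and with Arg from 172–209 to 141–151 CPM (log2 fold change −0.40, standard error 0.0754, adjusted p = 0.00058). The call in the control held in 3 of 6 fits with 1 library left out, and the adjusted p was 0.0704 without replicate A at 24 h, 0.0699 without replicate C at 24 h, and 0.0548 without replicate A at 48 h. The summed FPKM of the repressors was 51.7 ± 3.84 at 24 h and 41.1 ± 1.07 at 48 h in the control, and 55.1 ± 4.92 and 41.6 ± 1.40 with Arg.

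E2F5 had 10.2, 7.68, and 8.001 CPM at 24 h and 4.32, 5.17, and 6.10 CPM at 48 h with Arg, and it fell (log2 fold change −0.73, standard error 0.189, adjusted p = 0.00661). In the control, it had 7.39–10.2 and 4.98–8.04 CPM, which overlapped, and a log2 fold change of −0.52 (adjusted p = 0.106), with an adjusted p of 0.0419 without control replicate C at 48 h. Its neighbour on the opposite strand, C8orf59, had log2 fold changes of 0.03 in the control and 0.14 with Arg (adjusted p = 0.894 and 0.501). E2F7 fell with Arg from 34.2–36.3 to 25.9–29.4 CPM (log2 fold change −0.35, standard error 0.0927, adjusted p = 0.00808), although its adjusted p was 0.0574 without Arg replicate B at 48 h. In the control, it had 33.8–40.2 and 28.2–32.1 CPM with no overlap and a log2 fold change of −0.27 (adjusted p = 0.0909). That E2F5 and E2F7 passed with Arg and not in the control does not show a difference between the conditions, since their interactions had adjusted p-values of 0.938 and 0.954. E2F8 passed in neither condition (log2 fold changes −0.16 and −0.10).

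RBL2 rose in both conditions. It had 40.1, 46.3, and 39.7 CPM at 24 h and 60.4, 55.9, and 59.5 CPM at 48 h in the control, without overlap (log2 fold change 0.48, standard error 0.0914, interval 0.28 to 0.68, adjusted p = 0.00537). With Arg, it had 34.98, 35.26, and 42.1 CPM at 24 h and 55.6, 51.0, and 45.7 CPM at 48 h (log2 fold change 0.44, standard error 0.0986, interval 0.23 to 0.65, adjusted p = 0.00228). Both calls held in 6 of 6 fits with 1 library left out. AKTIP, which overlaps RBL2 on the opposite strand by gene coordinates (6347 counts against 10321), had log2 fold changes of 0.33 in the control (adjusted p = 0.105) and 0.24 with Arg (adjusted p = 0.0935). Whether the overlap touches exons was not examined, and the strand setting is not given, so its effect on the RBL2 count is not known. RB1 and RBL1 passed in neither condition, with log2 fold changes between −0.07 and 0.11. The ratio of RBL2 to RB1 in FPKM was 0.305 ± 0.0111 and 0.306 ± 0.0277 at 24 h in the control and with Arg, and 0.436 ± 0.0193 and 0.384 ± 0.0264 at 48 h. RB1 overlaps RCBTB2 on the opposite strand (2782 counts against 25254).

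Differentiation markers of keratinocytes, 7 in number and all detected, summed to 837–1410 CPM in the 24 h control and 1929–4655 CPM in the 48 h control, and 1120–1694 and 3613–4371 CPM with Arg. Most of this sum came from KRT13 (573–3455 CPM over the 12 libraries) and KRT10 (157–1109 CPM), while the other 5 markers reached at most 135 CPM each (KRT1). The 5 fibroblast markers summed to 34.2–54.3 and 85.3–102 CPM in the control at 24 and 48 h, and to 30.2–41.0 and 72.5–100 CPM with Arg. At 24 h, the range of the differentiation markers with Arg overlapped that of the control. Mitochondrially encoded genes took 0.624–0.802% of the counts at 24 h and 1.14–1.31% at 48 h with Arg, while in the control they took 1.20–1.30% at 24 h and 0.906%, 1.55%, and 0.707% in replicates A, B, and C at 48 h. Without replicate B, the share was thus lower at 48 h in the control and higher at 48 h with Arg. The part of these markers and shares in the changes of RBL2, E2F3, E2F4, E2F5, and E2F7 was not tested.

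Genes that work with the family were read from 7 lists, given by their counts and by the genes with the smallest p. Among DP partners and E2F6, TFDP1, the main DP partner, had 634–651 CPM in the 24 h control and 537–584 CPM with Arg, which did not overlap, but it did not pass in edgeR's pairwise fit (log2 fold change −0.21, adjusted p = 0.0878). DESeq2 called 1 gene of this list lower at 24 h, and so did edgeR without Arg replicate A. TFDP2 and E2F6 had log2 fold changes of 0.07 and −0.06 (adjusted p = 0.762 and 0.766), and TFDP3 had no counts. At 48 h, the value for TFDP1 was −0.18 (adjusted p = 0.262). Over time TFDP1 fell in both conditions, by 0.25 in the control and by 0.21 with Arg on the log2 scale (adjusted p = 0.0284 and 0.0153), in 2 of 6 and 4 of 6 fits with 1 library left out, respectively. Of the 8 genes of the MuvB, MYB, and FOXM1 list, whose products form the DREAM complex with RBL1, RBL2, and E2F4 or its activating counterpart, 0 were called in either Arg comparison by edgeR's pairwise fit or DESeq2, and 1 had an unadjusted p under 0.05 at each time. Their median log2 fold change was −0.05 at 24 h and −0.04 at 48 h, against 0.003 and 0.0018 for all genes tested. MYBL2 (B-Myb) differed by 0.18 at 24 h on the log2 scale (adjusted p = 0.175). With Arg, 3 of the 8 fell from 24 to 48 h, among them MYBL2 (−0.32, adjusted p = 0.00216) and FOXM1 (−0.44, adjusted p = 0.000217). In the control, 1 of the 8, MYBL2, fell (−0.23, adjusted p = 0.0396), and 0 were called with any 1 of the 6 libraries left out.

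The 9 cyclins and kinases that phosphorylate pocket proteins had 0 calls with Arg at either time in edgeR's pairwise fit. At 24 h, DESeq2, the single model of 12 libraries, and removal of the length trend (with or without the block) each called 1 as higher, the fit without control replicate B called 1 higher and 1 lower, and at 48 h 1 was called lower without a filter. At 24 h, 5 were higher and 4 lower, around a median of 0.08 on the log2 scale. The unadjusted p was under 0.05 in 4 of the 9, against 22.8% of all genes tested. CCNA2 (cyclin A2) had 247 ± 8.51 CPM in the control and 295 ± 21.9 CPM with Arg (log2 fold change 0.25, adjusted p = 0.0612). CCNE1 (cyclin E1, an E2F target that acts at the start of S phase) had 18.3 ± 1.11 and 14.1 ± 1.04 CPM (log2 fold change −0.38, adjusted p = 0.0839). Over time, 5 of the 9 fell in the control and 6 of the 9 with Arg, and none rose, against 19.9% and 28.3% of all genes called in either direction. The control count was 3 without replicate A or replicate C at 24 h. CDK6 was among them in both conditions (−0.72 and −0.50, adjusted p = 0.00126 and 3.95e-05), and so was CCNA2 (−0.28 and −0.55, adjusted p = 0.0171 and 1.08e-05).

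Of the 7 CDK inhibitors, which keep pocket proteins unphosphorylated, CDKN1C (p57) fell with Arg at 24 h and the other 6 did not pass in edgeR's pairwise fit. DESeq2, the fit without a filter, the single model of 12 libraries, and the replicate block (with or without removal of the length trend) each called 1 inhibitor higher besides 1 lower, as did the fit without control replicate B. With the length trend removed but no block, or without Arg replicate A, 2 were called higher. CDKN1C had 103 ± 4.63 CPM in the control (98.4–108) and 34.8 ± 6.27 CPM with Arg (29.6–41.8), with no overlap. This fall of −1.57 on the log2 scale had a standard error of 0.111 (adjusted p = 1.39e-07), and 1 gene of the list was called lower in all 6 fits with 1 library left out. At 48 h, it had 49.2–194 CPM in the control and 45.5–51.8 CPM with Arg, which overlapped through control replicate B (log2 fold change −1.45, adjusted p = 0.145). At 48 h, 1 of the 7 inhibitors was called lower with the replicate block, with the length trend removed as well, in the single model of 12 libraries, and without a filter. Without control replicate B at 48 h, 1 CDK inhibitor was called higher and 1 lower, as were 1152 and 1213 of all genes. CDKN2C (p18) and CDKN1B (p27) had log2 fold changes of 0.52 and 0.30 at 24 h (adjusted p = 0.0556 and 0.0702). Over time, 2 of the 7 inhibitors rose in the control and 3 of the 7 with Arg, and 0 fell. Of all genes tested, 19.9% and 28.3% were called in either direction. CDKN1A (p21) was among those that rose in both conditions (0.54 in the control and 0.34 with Arg, adjusted p = 0.00619 and 0.00158). Of the 8 corepressors that pocket proteins recruit, 0 were called with Arg at 24 or 48 h by edgeR's pairwise fit or DESeq2. Without control replicate B at 24 h, 1 corepressor was called higher at 24 h. In the main fits, 1 had an unadjusted p under 0.05 at each time, with medians of 0.11 and −0.0038. KDM5A, a histone demethylase that binds RB1, had the smallest p at both times (0.27 and 0.24, adjusted p = 0.118 and 0.272).

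Target genes were read by phase. Of the G1/S targets of E2F, 29 were tested. At 24 h, 22 were higher with Arg and 7 lower, around a median of 0.09 on the log2 scale. None was called by edgeR's pairwise fit (0 of 29), while DESeq2 called 2 as higher. The unadjusted p was under 0.05 for 7 of the 29, against 22.8% of all genes tested. The single model of 12 libraries called 4 as higher, and 1 was called with library size only, without a filter, or with the length trend removed. Without control replicate B at 24 h, 4 were called higher, and without Arg replicate A at 24 h, 2 were. The smallest p-values were those of RRM1 and EZH2 (0.24 and 0.26, adjusted p = 0.0547 and 0.0716), a subunit of ribonucleotide reductase and a histone methyltransferase. Of the 22 G2/M genes, which the DREAM complex and its MYB and FOXM1 counterparts regulate, 21 were higher with Arg at 24 h, with a median log2 fold change of 0.29. Of these, 9 rose at an adjusted p under 0.05 and none fell, against 2.79% and 3.84% of all genes tested. TOP2A (DNA topoisomerase II alpha) rose from 487 ± 37.2 to 629 ± 10.8 CPM (log2 fold change 0.37, standard error 0.0758, adjusted p = 0.00696). KIF20A, a kinesin of cytokinesis, rose from 208 ± 25.9 to 278 ± 10.5 CPM (log2 fold change 0.42, standard error 0.0885, adjusted p = 0.00806). BUB1B, of the spindle checkpoint, and TPX2, of spindle assembly, rose by 0.39 and 0.35 on the log2 scale (adjusted p = 0.0084 for both). The 9 calls became 4 without control replicate A, 0 without control replicate C, 4 without Arg replicate B, and 3 without Arg replicate C, all at 24 h, whereas E2F2 was called in all 6 of these fits.

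**Figure D5:**
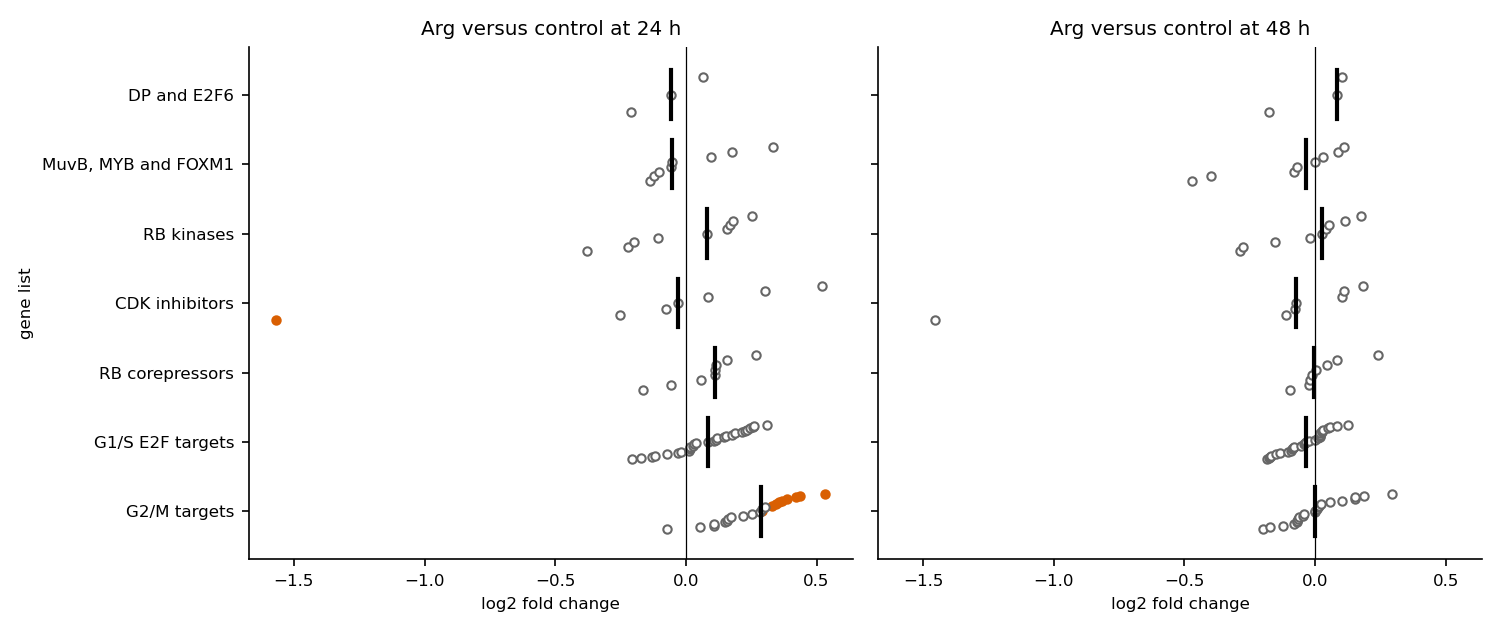
Log2 fold change with Arg of each tested gene of the 7 lists at 24 h (left) and 48 h (right), with a vertical bar at the median of each list and filled points for an adjusted p under 0.05. At 24 h, 9 of the 22 G2/M genes and CDKN1C are filled, and at 48 h no point is.

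At 48 h, 0 genes of the 7 lists were called with Arg by edgeR's pairwise fit or DESeq2. Without a filter, 1 RB kinase and 1 CDK inhibitor were called lower and 1 G2/M gene higher. The unadjusted p was under 0.05 for 1 G1/S target and 3 G2/M genes, against 13.4% of all genes tested. The medians were −0.03 for G1/S targets and −0.001 for G2/M genes. Without control replicate B, 1 G1/S target was called higher and 5 lower, and 1 G2/M gene higher and 3 lower. Over all genes, that fit called 1152 higher and 1213 lower, against 17 called in the main fit. In the same fit, 1 gene was called lower in each of the DP and E2F6, MuvB, and RB kinase lists, and 1 corepressor was called higher. In the interaction model, all 22 G2/M genes had a smaller log2 fold change at 48 h than at 24 h (median −0.25, against −0.01 for all genes tested). Of the 22, 12 had an unadjusted p under 0.05, against 6.87% of all genes tested, and 0 had an adjusted p under 0.05 by edgeR or DESeq2. Over time, 15 of the 22 G2/M genes fell and 0 rose with Arg (median −0.27), where 28.3% of all genes tested were called. In the control, 4 rose and 5 fell (median 0.02), where 19.9% of all genes tested were called. These counts of G2/M genes became 1 and 0 without control replicate A at 24 h, 0 and 1 without control replicate C at 24 h, 2 and 3 without control replicate A at 48 h, and 2 and 4 without control replicate B at 48 h. Of the G1/S targets, 3 rose and 6 fell with Arg, and 4 rose and 2 fell in the control, with RRM2, the other subunit of ribonucleotide reductase, falling in both (−0.87 and −0.54, adjusted p = 2.42e-07 and 0.00293). With 1 library left out, the G1/S counts in the control were 1 and 1 without replicate A or replicate C at 24 h and 2 and 2 without replicate C at 48 h, and with Arg they ran from 2 to 3 and from 4 to 9.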

How the data were processed

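Poly(A) RNA of 12 libraries was sequenced as 150 bp paired-end reads. Trimming with fastp, mapping with STAR (GRCh38/hg38), and counting with featureCounts were done by the authors, who deposited unnormalized counts with gene coordinates and exonic lengths. Tool versions, the annotation release, and the strand setting are not given in the sources used here. All sample columns were used. Each pair of groups (6 libraries) was fitted in R 4.3.3 by the quasi-likelihood test of edgeR 4.0.16, after TMM scaling and filterByExpr and without a block. The interaction used all 12 libraries. Benjamini–Hochberg adjustment ran over all genes tested, and a gene was called at an adjusted p under 0.05. For a single gene, the smallest p of an exact permutation test is 0.1 in this design. CPM were TMM-scaled over all 12 libraries. Motifs were counted with Python 3.11.15. Replicates differed by a chi-square per degree of freedom between 3.66 and 23.9, which exceeds sampling noise, and none was treated as a repeat. The scripts were tested on simulated data.

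All 10 members were fitted in every comparison. Of each list, at most 4 genes with the smallest p in each Arg comparison were named. The members and lists were chosen with earlier results of these data known. A planned comparison of protein sequences was not made. The alternatives tried were the DESeq2 1.42.0 test, its size factors within edgeR, no scaling beyond library size, no filter, a minimum of 10 counts in every library, a single model for all comparisons, a replicate block, removal of a trend with exonic length (lowess span 0.3, prior count 2) with and without that block, and omission of each library. The same settings were applied to the lists after seeing the data.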

Additional observations from a re-analysis of the deposited data

How the results depend on the processing

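E2F2 with Arg at 24 h kept its direction and its call under all 9 alternatives (adjusted p from 6.44e-06 to 0.00108) and with any 1 library left out (log2 fold change 0.76 to 0.79). The number of all genes called moved more. With 1 library left out, 126 to 647 genes were called higher and 233 to 882 lower at 24 h. At 48 h, 0 to 1152 were higher and 5 to 1213 lower, the highest both without control replicate B, where 1 member (E2F8) was called higher against 0 to 1 over these fits. The other settings at 48 h gave 42 and 127 genes with DESeq2, 199 and 374 without a filter, 4 and 37 in a single model of all 12 libraries, and 1 higher with the length trend removed. For the interaction, DESeq2 called 9 higher and 12 lower, no filter gave 51 and 37, and leaving out 1 library gave 0 to 28 and 0 to 18, with 0 members called in each. Over time in the control, leaving out 1 library gave 422 to 1585 genes higher and 406 to 1719 lower, with 1 to 2 members higher and 1 to 3 lower.

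The labels do not say whether libraries with the same replicate letter share anything beyond it. The correlations of the deviations of same-lettered libraries were 0.042, 0.0059, and −0.119 at 24 h, −0.042, 0.017, and 0.076 at 48 h, 0.118, 0.238, and 0.077 over time in the control, and −0.035, −0.043, and −0.049 over time with Arg. With the replicate block, 43 genes were called higher and 141 lower at 48 h, and 19 and 92 with the length trend removed as well. In the control over time, the block alone added E2F5 to the members called (adjusted p = 0.0442), and with the length trend removed it gave 2467 genes and 4 members lower, which adds E2F7 (adjusted p = 0.0347). E2F7 was also called without a block, with the length trend removed (adjusted p = 0.0456) and in the single model of 12 libraries (0.0443).

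No sign turned in a comparison in which that member had been called. The log2 fold change of E2F1 at 48 h was 0.0126 with the length trend removed, 0.013 with the block as well, and −0.0906 to 0.0037 with 1 library left out. Over time in the control, E2F1 was 0.0529 with library size only, 0.0122 with the length trend removed with or without the block, and −0.0585 to 0.0386 with 1 library left out. RB1 was 0.0244 with library size only and −0.0951 to 0.0369 with 1 library left out, and RBL1 was −0.0155 with the length trend removed, −0.0133 with the block as well, and −0.0471 to 0.0612 with 1 library left out. The other ranges with 1 library left out were −0.2005 to 0.0369 for E2F5 and −0.1022 to 0.0246 for E2F7 at 24 h, −5e-04 to 0.0421 for E2F4, −0.0461 to 0.0043 for RB1, and −0.0248 to 0.0644 for RBL1 at 48 h, and −0.3514 to 0.0088 (without control replicate C at 48 h) for E2F5, −0.0744 to 0.1988 for E2F8, and −0.1127 to 0.0509 for RBL2 in the interaction. The causes of these changes were not tested. With 3 libraries a group and 83 to 182 counts a library, E2F5 was the least precisely measured member.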
